A study of Mus musculus with 6 samples.

Results

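Integrin and laminin subunit genes were taken by symbol from the count table of a mouse lung epithelial wound series. The rule kept integrin alpha subunits (Itga), integrin beta subunits (Itgb1 and its numbered relatives) and the laminin alpha, beta and gamma chains (Lama, Lamb and Lamc). It found 37 genes of 46078 in the table, of which 18 encode integrin alpha subunits, 8 encode integrin beta subunits and 11 encode laminin chains. The tested members described here are the 19 that averaged 1 CPM or more across the libraries, 13 of them integrins and 6 of them laminins, and 17 lay below that level. CPM is the count per 1000000 scaled reads.

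Integrins are transmembrane receptors made of 1 alpha and 1 beta subunit that tie the cytoskeleton to matrix or to other cells. Laminins are basement membrane proteins, each a trimer of 1 alpha, 1 beta and 1 gamma chain. In epithelia, the trimer that holds the Lama3 and Lamb3 chains lies under hemidesmosomes, is bound by the integrins alpha6-beta4 and alpha3-beta1, and is laid down by migrating cells at wound edges. The trimers with the Lama5 chain are common in the basement membranes of lung epithelium.

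The cells were MLE12, a mouse lung epithelial line immortalized with a viral large T antigen under the surfactant protein C promoter. Monolayers of the Lingo1 KO, Lingo2 KO, Lingo3 KO and TROY KO lines were collected 24 hours after a pipet-tip scratch, and wild-type (WT) cells were collected 24 hours after a scratch or without one. Each of the 6 groups had 1 library, so no spread between cultures was measured, no p-value was computed, and genotype, line and culture cannot be told apart. Whether each KO line was grown from 1 cell is not given in the sources used here. LINGO proteins are leucine-rich repeat membrane proteins and TROY is a tumour necrosis factor receptor family member, both best known from neurons, and the title of the series ties them to epithelial wound healing.

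Transcript counts gave no check of the knockouts. The Lingo1 transcript was measured at 57.0 CPM in the library labelled Lingo1 KO, 52.0 in Lingo2 KO, 51.3 in Lingo3 KO and 34.7 in TROY KO, against 24.5 CPM in scratched and 27.6 CPM in unscratched WT. That level goes against the label of the first of these libraries, as far as a knockout would lower the transcript, so it is called by its label throughout and any direction drawn from it rests on that label. Lingo2 had 0 counts in all 6 libraries, Lingo3 had at most 1 and Tnfrsf19, which encodes TROY, at most 4. The plural KO libraries also follows the labels.

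The libraries held between 28109825 and 30776294 reads in genes. Of the alveolar type II markers, Nkx2-1, Sftpb and Sftpc were detected in every library, with Sftpc between 473 and 2498 counts, while 4 of 9 alveolar type II markers, Sftpa1, Sftpd, Lamp3 and Slc34a2, had at most 3 counts in any library. Of the 6 epithelial markers, Cdh1, Krt8 and Krt19 were abundant, Krt7 and Epcam were between 3.91 and 13.0 CPM, and Krt18 had at most 14 counts. Of the 6 leukocyte markers, Adgre1 had 0 counts in all 6 libraries, Ptprc, Csf1r and Cd3e had at most 7, Lyz2 between 3 and 27 and Cd68 between 44 and 87, and the platelet markers Pf4 and Ppbp had 0. The fibroblast marker list summed to between 2578 and 3460 CPM, mostly through Dcn, while Col1a2 and Lum had at most 3 counts.

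Levels of different subunits were compared only per transcript length, with the RPKM values that the authors deposited (reads per kilobase and per 1000000 reads). The RPKM order ran from Itgb1, the beta subunit shared by most integrins, to Itgb6, a partner of alphav. Itgb1 stood between 214 and 269 RPKM, above every other subunit in every library. Lamb2, Lamc1, Itgb5, Itga3, Lama5 and Itgav followed with means between 44.8 and 128 RPKM, and the ranges of neighbours in this order overlapped. Itgb4, the hemidesmosomal beta subunit, averaged 13.2 RPKM, and its range overlapped neither that of Itgav above it nor that of Lamb1 below it. Lamb1, Itga5, Itga6, Itgb3, Lamb3, Itga2b and Lama3 had means between 2.20 and 6.51 RPKM. Itga9, Itga1, Itgb8 and Itgb6 had means of 0.72 RPKM or less.

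**Figure D1:**
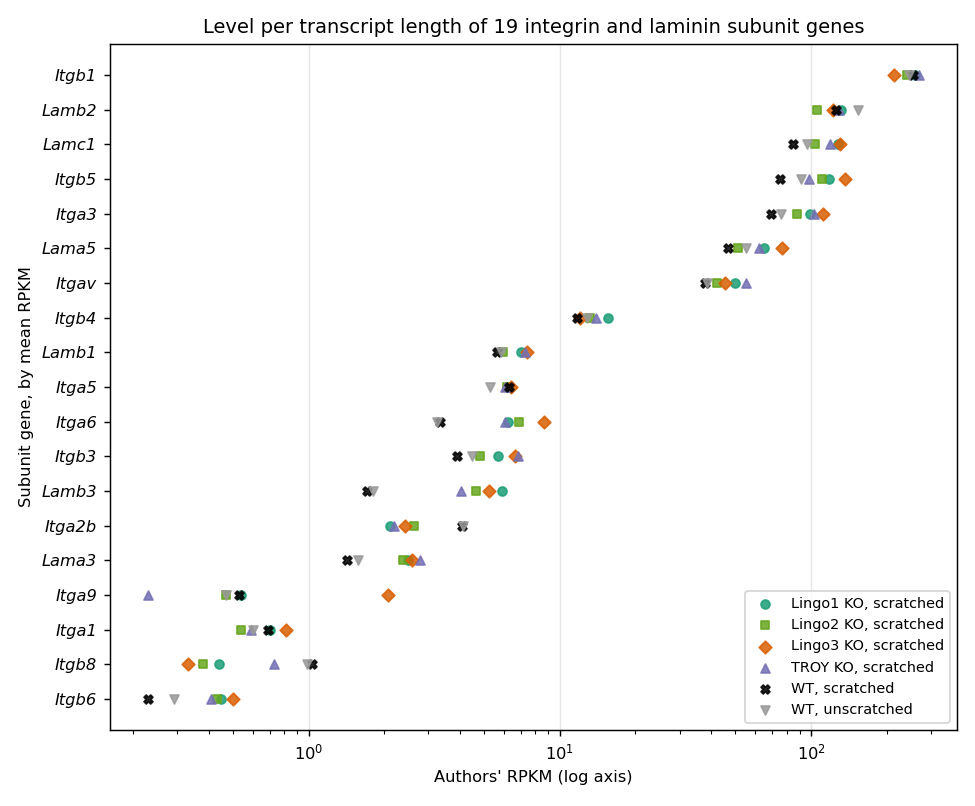
The authors' RPKM (x axis, log scale) of the 19 tested subunit genes (rows, ordered by mean RPKM), with 1 symbol per library. Itgb1 lay highest in every library, and Itga9 had the widest spread, from 0.23 RPKM in the TROY KO library to 2.08 RPKM in the Lingo3 KO library.

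Among laminin chains, Lamb3 stood between 1.15 and 2.36 times the RPKM of Lama3 over the 6 libraries. That ratio rests on the longest transcripts, 4867 bases for Lamb3 and 10548 for Lama3. Counts per gene do not tell transcripts apart, so it would differ if shorter forms were expressed. Of the chains found in other trimers, Lamc1 stood between 1.70 and 2.03 times the RPKM of Lama5, and Lamb2 between 16.5 and 26.5 times that of Lamb1. Lama5 was the main alpha chain, and Lama1 and Lama2 had at most 5 counts in any library.

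Start-site sequences are shown for 4 members because they frame the result: Lamb3 was higher in every KO library, Itga9 and Itgb8 differed most between KO libraries, and Itgb1 was the most abundant subunit and passed in none of the comparisons. Each is the RefSeq window of 300 bases on GRCm38.p6, from 250 bases before to 50 bases after an annotated start, read 5′ to 3′ on the gene's strand, with CG dinucleotides in capitals. RefSeq windows were matched for 14 of the 19 tested members. The windows are chr1:193301744-193302043 (plus strand) for Lamb3, chr9:118711442-118711741 (plus strand) for Itga9, chr12:119238227-119238526 (minus strand) for Itgb8 and chr8:128685404-128685703 (plus strand) for Itgb1. The windows of Lamb3, Itga9 and Itgb8 lie inside the genes as GENCODE bounds them, so those genes begin further upstream there.
Lamb3: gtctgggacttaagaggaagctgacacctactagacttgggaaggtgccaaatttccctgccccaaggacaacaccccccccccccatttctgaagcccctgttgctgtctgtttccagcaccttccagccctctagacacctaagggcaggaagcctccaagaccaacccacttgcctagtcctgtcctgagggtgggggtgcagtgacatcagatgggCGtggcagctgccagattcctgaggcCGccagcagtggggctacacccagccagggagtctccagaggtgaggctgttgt
Itga9: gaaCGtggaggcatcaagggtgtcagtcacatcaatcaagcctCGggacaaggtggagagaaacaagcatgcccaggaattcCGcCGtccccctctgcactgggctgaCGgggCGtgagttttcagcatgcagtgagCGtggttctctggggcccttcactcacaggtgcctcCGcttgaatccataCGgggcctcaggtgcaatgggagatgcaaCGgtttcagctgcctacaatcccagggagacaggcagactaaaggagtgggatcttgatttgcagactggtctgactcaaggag
Itgb8: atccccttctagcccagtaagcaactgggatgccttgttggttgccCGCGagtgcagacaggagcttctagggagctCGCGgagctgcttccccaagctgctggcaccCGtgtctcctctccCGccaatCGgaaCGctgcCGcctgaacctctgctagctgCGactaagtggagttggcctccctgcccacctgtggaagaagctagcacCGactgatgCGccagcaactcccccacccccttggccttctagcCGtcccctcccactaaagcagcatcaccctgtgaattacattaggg
Itgb1: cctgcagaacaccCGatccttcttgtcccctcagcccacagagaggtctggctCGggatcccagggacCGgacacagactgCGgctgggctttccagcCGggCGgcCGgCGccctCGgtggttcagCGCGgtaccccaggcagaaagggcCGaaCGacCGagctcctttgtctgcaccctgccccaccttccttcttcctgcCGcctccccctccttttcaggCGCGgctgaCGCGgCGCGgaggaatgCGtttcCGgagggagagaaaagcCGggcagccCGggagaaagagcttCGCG
The Lamb3 window holds 2 CG dinucleotides, and 23.3% of all 32851 windows hold as few or fewer. Itga9 has 10, Itgb8 has 13 and Itgb1 has 27, against a median of 7 over all windows, and 15.5% of all windows hold at least 27. A second Lamb3 window, which starts within the first, holds 5. The heptamer bound by AP-1 (Fos and Jun) factors, TGANTCA on either strand, is in 7.81% of all windows and in 2 of the 17 windows of tested members. Those are the Itga9 window, where it begins 38 bases past the annotated start, and the second of the 2 windows of Itga3. Neither Lamb3 window holds these letters, which says nothing of the factor.

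Each KO library was set against the scratched WT library to ask how the receptors differ in the wounded monolayer of that line. To pass the size rule, the ratio of scaled counts had to be 2-fold or more in either direction, with the nearer bound of its 95% interval beyond 1.5-fold. Intervals are exact (Clopper-Pearson, from the pair of counts) and cover counting error only. Genes that passed are called higher or lower. The 4 comparisons share the scratched WT library, so their ratios are not independent of each other.

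In the library labelled Lingo1 KO 1 of the 19 tested members was higher and 1 was lower. Over all 12078 tested genes there, 3.62% passed, 1.95% higher and 1.67% lower. In Lingo2 KO 2 were higher and 1 was lower, where 3.5% of all tested genes passed, 2.12% higher and 1.38% lower. In Lingo3 KO 3 were higher and 1 was lower, where 7.19% passed, 4.63% higher and 2.56% lower. In TROY KO 1 was higher and 1 was lower, where 2.24% passed, 1.06% higher and 1.18% lower. These counts rest on 4 genes, Lamb3, Itga6, Itgb8 and Itga9. The members' median log2 ratio was 0.42 for the library labelled Lingo1 KO, 0.17 for Lingo2 KO, 0.63 for Lingo3 KO and 0.39 for TROY KO, beside medians over all tested genes between 0.01 and 0.02.

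Among the laminin chains, Lamb3 passed. Lamb3 (ENSMUSG00000026639, chromosome 1, 193207699 to 193343878, GRCm38), the beta chain found in the hemidesmosomal trimer alone, was higher in all 4 KO libraries. It stood at 28.9 CPM in the library labelled Lingo1 KO, 23.0 in Lingo2 KO, 25.8 in Lingo3 KO and 20.1 in TROY KO, against 8.35 CPM in the scratched and 8.93 CPM in the unscratched WT library. All 4 KO values lay above both WT values. The same held for Lama3, Lamb1, Lamc1, Itga3, Itga6, Itgav, Itgb3, Itgb5 and Itgb6, so it does not set Lamb3 apart. How many of all tested genes split in this way was not counted. The Lamb3 ratio to scratched WT was 3.46 (3.0 to 4.0) for the library labelled Lingo1 KO, 2.76 (2.38 to 3.20) for Lingo2 KO, 3.09 (2.68 to 3.58) for Lingo3 KO and 2.40 (2.07 to 2.80) for TROY KO. Against unscratched WT the 4 ratios lay between 2.25 and 3.24, and all passed. In those comparisons 3.17% of all tested genes passed for the library labelled Lingo1 KO, 2.95% for Lingo2 KO, 6.85% for Lingo3 KO and 2.25% for TROY KO.

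Lama3 (ENSMUSG00000024421, chromosome 18, 12333819 to 12583013), the alpha chain of that trimer, stood at 26.5 CPM in the library labelled Lingo1 KO, 25.6 in Lingo2 KO, 27.6 in Lingo3 KO and 29.8 in TROY KO, against 15.1 CPM in scratched and 16.8 CPM in unscratched WT. These values did not overlap either, a split that was not counted over all tested genes. No ratio reached 2-fold, and the nearest was 1.98 (1.77 to 2.22) in TROY KO. The order of the KO libraries differed between chains: TROY KO was the highest of the 4 for Lama3 and the lowest for Lamb3. The RPKM of Lamb3 was between 1.46 and 2.36 times that of Lama3 in the KO libraries, against 1.2 times in scratched and 1.15 times in unscratched WT.

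**Figure D2:**
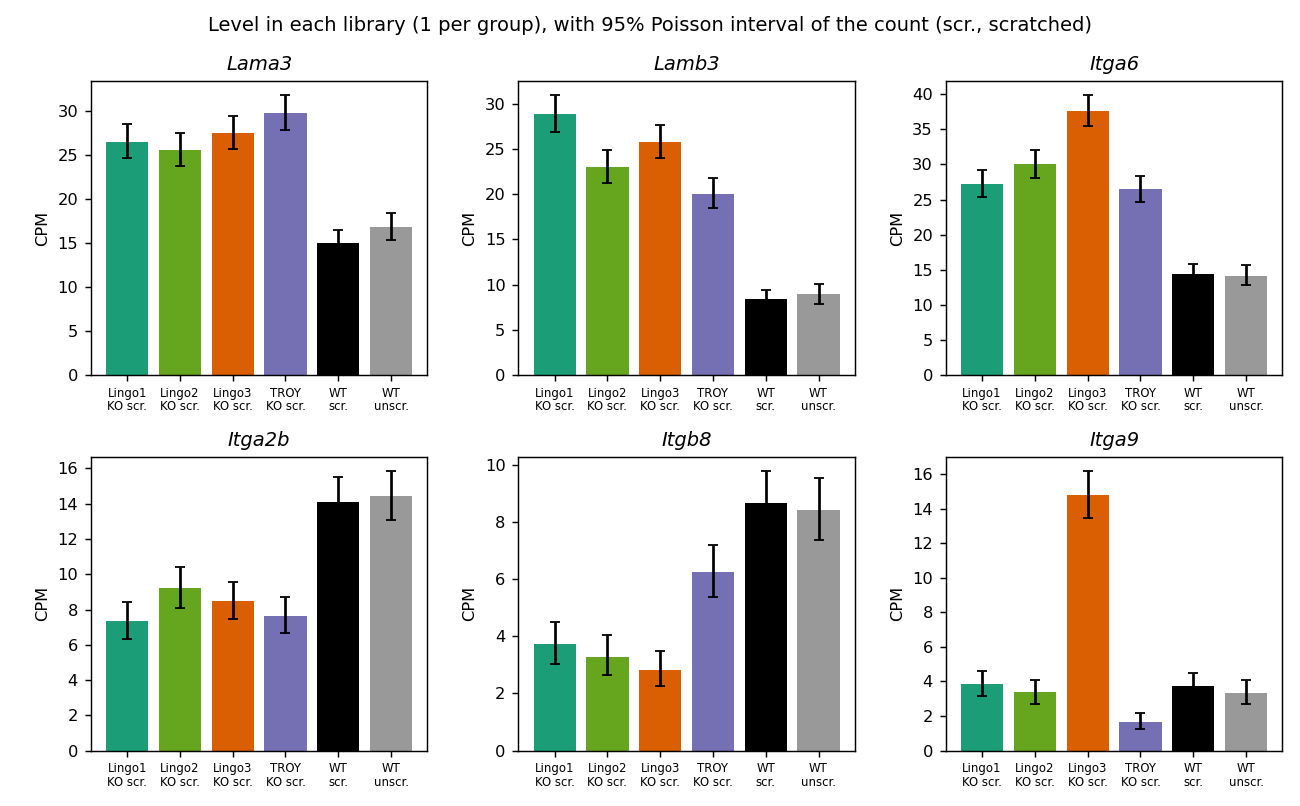
Level in CPM (y axis, from 0) of 6 subunit genes in each of the 6 libraries (bars, 1 library per group), with the 95% Poisson interval of the count. The chains Lama3 and Lamb3 and the receptor subunit Itga6 lay above both WT libraries in all 4 KO libraries. Itga2b and Itgb8 lay below both. How many of all tested genes split in these ways was not counted. Itga9 reached 14.8 CPM in Lingo3 KO and 1.66 CPM in TROY KO.

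The 6 epithelial markers summed to between 2765 and 2945 CPM in the KO libraries, against 2071 CPM in scratched and 2249 CPM in unscratched WT. The 9 alveolar type II markers summed to between 442 and 623 CPM in the KO libraries, against 350 CPM in scratched and 392 CPM in unscratched WT. Among them, Sftpb was between 2.44-fold (TROY KO) and 4.61-fold (Lingo3 KO) higher in the 4 KO libraries than in scratched WT. Sftpc was 2.22-fold higher in the library labelled Lingo1 KO, 2.29-fold in Lingo2 KO and 4.47-fold in Lingo3 KO. It stood at 19.8 CPM in TROY KO, against 18.3 CPM in scratched WT. Napsa passed in Lingo3 KO alone, 3.46-fold higher. Abca3 and Nkx2-1 passed in none. Abca3 stood between 126 and 164 CPM in the KO libraries, against 133 CPM in scratched and 141 CPM in unscratched WT. Nkx2-1 stood between 164 and 205 CPM in the KO libraries, against 160 CPM in scratched and 191 CPM in unscratched WT. Of the 5 endothelial markers, Tek stood between 161 and 186 CPM in the KO libraries, against 86.5 CPM in scratched and 102 CPM in unscratched WT. Its ratio to scratched WT passed in the library labelled Lingo1 KO (2.14) and in Lingo3 KO (2.15) only. Cdh5, Cldn5 and Kdr were at their highest in scratched WT, and Pecam1 had between 4 and 15 counts in every library. The part of these markers in the laminin and Itga6 values was not tested. None of Lamc1, Lama5, Lamb1 and Lamb2 passed in any comparison. Lamc1, the gamma chain of most trimers, had ratios to scratched WT between 1.24 and 1.55. Lama5 had ratios between 1.11 in Lingo2 KO and 1.66 (1.63 to 1.69) in Lingo3 KO, Lamb1 between 1.07 and 1.32, and Lamb2 between 0.849 in Lingo2 KO and 1.06 in the library labelled Lingo1 KO.

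Of the laminin receptors, Itga6 (ENSMUSG00000027111, chromosome 2, 71745616 to 71858416), the alpha subunit that pairs with beta4 in hemidesmosomes and with beta1 elsewhere, was higher in the Lingo2 and Lingo3 KO libraries. It stood at 27.2 CPM in the library labelled Lingo1 KO, 30.0 in Lingo2 KO, 37.7 in Lingo3 KO and 26.5 in TROY KO, against 14.4 CPM in scratched and 14.2 CPM in unscratched WT. All 4 KO values were above both WT values, with Lingo3 KO the highest, and this split was not counted over all tested genes. The ratio to scratched WT was 2.08 (1.85 to 2.34) for Lingo2 KO and 2.61 (2.34 to 2.92) for Lingo3 KO. It was 1.89 (1.67 to 2.13) for the library labelled Lingo1 KO and 1.84 (1.63 to 2.07) for TROY KO, both of which missed it. Scaled by total counts, the ratio of Lingo2 KO was 1.98 and no longer passed.

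The partner Itgb4 did not follow, with ratios to scratched WT between 1.03 (0.974 to 1.10) in Lingo3 KO and 1.34 (1.27 to 1.42) in the library labelled Lingo1 KO. Per length, Itgb4 stood at between 1.39 and 2.49 times the RPKM of Itga6 in the KO libraries, against 3.51 times in scratched and 3.95 times in unscratched WT. Itga3, the other epithelial laminin receptor alpha subunit, had ratios between 1.27 (1.24 to 1.31) in Lingo2 KO and 1.62 (1.58 to 1.66) in Lingo3 KO, none past the rule. It was the most abundant alpha subunit, with between 59.4% and 62.9% of the summed RPKM of the 7 tested alpha subunits in the KO libraries, against 56.9% in scratched and 59.1% in unscratched WT. Itga7, the laminin receptor alpha subunit of muscle, had at most 8 counts. Itgb1, their common partner, had ratios between 0.847 and 1.07.

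**Figure D3:**
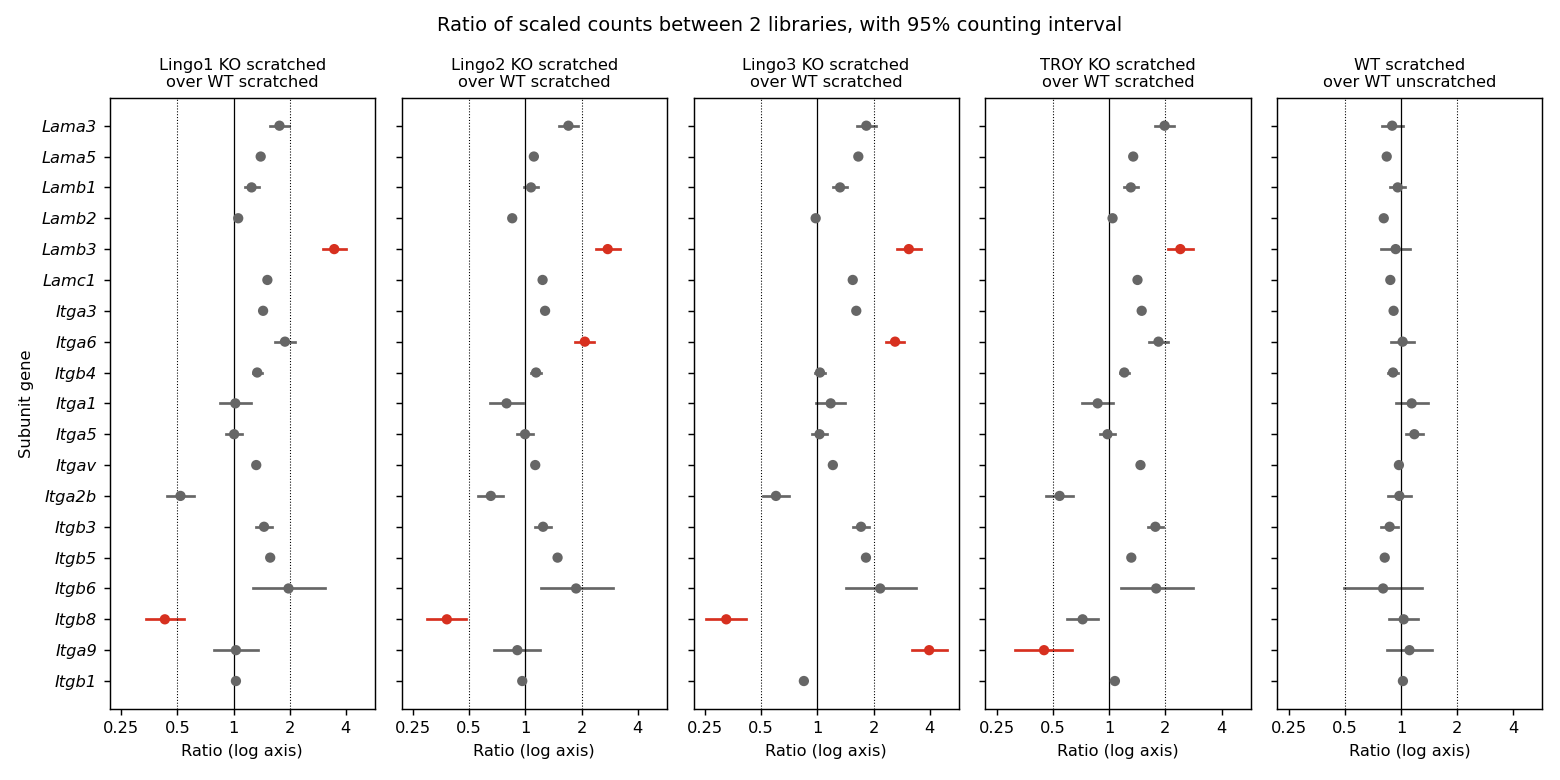
Ratio of scaled counts (x axis, log scale) for the 19 tested subunit genes (rows), with the 95% counting interval, for each KO library over scratched WT and for scratched over unscratched WT. Red marks genes past the size rule and dotted lines mark 2-fold, and the last panel has no red point.

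Among integrins that read the RGD motif of fibronectin, vitronectin and latent TGF-beta, Itgb8 was lower and the rest did not pass. Itgb8 (ENSMUSG00000025321, chromosome 12, 119158022 to 119238802), whose pair with alphav activates latent TGF-beta, stood at 3.72 CPM in the library labelled Lingo1 KO, 3.29 in Lingo2 KO, 2.82 in Lingo3 KO and 6.25 in TROY KO, against 8.68 CPM in scratched and 8.41 CPM in unscratched WT. The KO values were all below the WT values, with TROY KO the nearest to them. This split, too, was not counted over all tested genes. Relative to scratched WT, Itgb8 was 2.33-fold lower (1.85 to 2.96) in the library labelled Lingo1 KO, 2.64-fold lower (2.07 to 3.38) in Lingo2 KO and 3.08-fold lower (2.40 to 3.97) in Lingo3 KO. In TROY KO the ratio was 0.72 (0.594 to 0.871), short of the rule. TROY KO over Lingo3 KO was 2.22 (1.71 to 2.89), past the rule. TROY KO over the library labelled Lingo1 KO was 1.68 and TROY KO over Lingo2 KO was 1.90, neither of which passed.

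Itgb6, the other epithelial partner of alphav known to activate TGF-beta, lay near the limit of the test, with between 59 and 74 counts in the KO libraries, against 34 in scratched and 40 in unscratched WT. Its ratio was 2.17 (1.43 to 3.36) in Lingo3 KO and between 1.78 and 1.97 in the others, and none passed. Itgb5 had ratios between 1.31 in TROY KO and 1.82 (1.77 to 1.87) in Lingo3 KO, and Itgb3 between 1.24 in Lingo2 KO and 1.77 (1.61 to 1.94) in TROY KO. Itgav, the alpha subunit they share, had ratios between 1.13 and 1.47. Itga5, the fibronectin receptor alpha subunit, had ratios between 0.979 and 1.03, with all 4 intervals spanning 1.

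Itga2b, the alpha subunit of the platelet fibrinogen receptor, was measured at 7.33 CPM in the library labelled Lingo1 KO, 9.20 in Lingo2 KO, 8.46 in Lingo3 KO and 7.65 in TROY KO, against 14.1 CPM in scratched and 14.4 CPM in unscratched WT. The groups did not overlap, a split that was not counted over all tested genes. The ratios to scratched WT, between 0.52 (0.437 to 0.615) in the library labelled Lingo1 KO and 0.652 in Lingo2 KO, did not pass. Scaled by total counts, the ratio of the library labelled Lingo1 KO was 0.493 and passed. Of the other platelet genes, Gp1ba had between 21 and 44 counts, Gp9 at most 1, and Pf4 and Ppbp 0.

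Itga9 (ENSMUSG00000039115, chromosome 9, 118606690 to 118901003), the alpha subunit that pairs with beta1 and binds tenascin C and osteopontin, was the member that differed most between KO lines. It stood at 3.83 CPM in the library labelled Lingo1 KO, 3.36 in Lingo2 KO, 14.8 in Lingo3 KO and 1.66 in TROY KO, against 3.71 CPM in scratched and 3.35 CPM in unscratched WT. Lingo3 KO was above, and TROY KO below, all other libraries. The ratio to scratched WT was 3.97 (3.23 to 4.93) in Lingo3 KO, and Itga9 was 2.24-fold lower (1.59 to 3.18) in TROY KO. Against unscratched WT the ratio was 4.41 (3.53 to 5.55) in Lingo3 KO, while in TROY KO it was 0.496 (0.345 to 0.705), which did not pass. Of the 6 fibroblast markers, Col1a1, Pdgfra and Col3a1 were at their highest in Lingo3 KO, while Dcn, Col1a2 and Lum were not. Dcn stood at 2997 CPM there and between 2595 and 3321 CPM in the other KO libraries. It stood at 2532 CPM in scratched and 2760 CPM in unscratched WT. Col1a2 and Lum had at most 3 counts in any library. Col1a1 had 12125 counts there and between 3834 and 4714 in the other KO libraries, against 1362 in scratched and 1785 in unscratched WT. Pdgfra had 204 counts there and between 69 and 86 in the other KO libraries, against 52 in scratched and 46 in unscratched WT. Col3a1 had 62 counts there and at most 3 elsewhere. The 6 fibroblast markers summed to 3404 CPM in Lingo3 KO and to between 2744 and 3460 CPM in the other KO libraries, against 2578 CPM in scratched and 2824 CPM in unscratched WT. Their part in the Itga9 value was not tested.

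Comparisons between KO libraries do not use the WT libraries. Lingo3 KO exceeded the library labelled Lingo1 KO in Itga9 by 3.86-fold (3.12 to 4.81), where 1.65% of all tested genes passed, and exceeded Lingo2 KO by 4.39-fold (3.51 to 5.54), where 1.61% passed. Between TROY KO and Lingo3 KO, Itga9 was 8.88-fold lower in TROY KO (6.62 to 12.1), where 2.61% passed. TROY KO was also 2.30-fold lower (1.63 to 3.29) than the library labelled Lingo1 KO, where 0.215% passed. Against Lingo2 KO the TROY KO ratio was 0.494 (0.344 to 0.704), which did not pass, and 0.364% of tested genes did. Between Lingo2 KO and the library labelled Lingo1 KO no member passed, where 0.0166% of tested genes, or 2 genes, did. Over the 6 pairs of KO libraries, Itga9 and Itgb8 were the only members past the rule.

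The ligands of alpha9 also differed between these libraries. Tenascin C, Tnc, stood at 41.1 CPM in the library labelled Lingo1 KO, 38.3 in Lingo2 KO, 6.30 in Lingo3 KO and 27.7 in TROY KO, against 58.0 CPM in scratched and 70.8 CPM in unscratched WT. Osteopontin, Spp1, stood at 7.94 CPM in Lingo3 KO and between 1.99 and 2.83 CPM in the other KO libraries, against 0.493 CPM in scratched and 0.698 CPM in unscratched WT. In Lingo3 KO, where Itga9 was highest, Tnc was 9.21-fold lower (7.93 to 10.7) and Spp1 16.1-fold higher (9.57 to 29.2) than in scratched WT.

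In the WT line, the scratched library was set against the unscratched one. None of the 19 tested members passed, where 0.0828% of tested genes, or 10 genes, did, and with the wider rule of 1.5-fold and a bound of 1.2 none of them passed either. The ratios ran from 0.801 (0.492 to 1.30) for Itgb6 to 1.18 (1.06 to 1.30) for Itga5. The members' median log2 ratio was -0.10, beside -0.01 over all tested genes. All 6 laminin ratios were below 1, from 0.807 for Lamb2 to 0.958 for Lamb1, and stayed below 1 when scaled by total counts. The intervals of Lama3, Lamb1 and Lamb3 spanned 1. Over all tested genes, 46.4% had a ratio above 1 in this comparison.

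The 17 members under a mean of 1 CPM were Lama1, Lama2, Lama4, Lamc3, Itga2, Itga4, Itga7, Itga8, Itga10, Itga11, Itgad, Itgae, Itgal, Itgam, Itgax, Itgb2 and Itgb7. Of these, 9 had at most 8 counts in every library. They include Itgam, Itgax and Itgb2, subunits of the leukocyte integrins, with at most 4 counts each. Other subunits known from leukocyte integrins were detected at low level in every library, with Itgal at between 13 and 38 counts, Itgae between 22 and 39 and Itgb7 between 5 and 19. Itgal had 38 counts in Lingo2 KO, against 13 in scratched and 16 in unscratched WT, a ratio to scratched WT of 3.15 (1.64 to 6.44) below the filter on low counts. The 6 leukocyte markers summed to between 1.89 and 3.71 CPM in the KO libraries, against 1.91 CPM in scratched and 2.06 CPM in unscratched WT, and their part in these values was not tested.

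Lama4 (ENSMUSG00000019846, chromosome 10, 38965515 to 39110188), the alpha chain of vascular and muscle basement membranes, had 62 counts in the scratched WT library. It had 0 counts in the Lingo1, Lingo2 and TROY KO libraries and in unscratched WT, and 2 in Lingo3 KO. Against a floor of 3 counts per library, scratched WT was at least 19.5-fold above unscratched WT, and Lama4 was at least 18.8-fold lower in the library labelled Lingo1 KO, 19.2-fold in Lingo2 KO and 20.4-fold in TROY KO than in scratched WT. The 62 counts carry their own error: the nearer bound of the 95% interval was 14.9-fold for the library labelled Lingo1 KO, 15.2-fold for Lingo2 KO, 16.1-fold for TROY KO and 15.4-fold for unscratched WT. With 2 counts in Lingo3 KO the ratio to scratched WT was 0.0322 (0.00381 to 0.121). Of the 5 endothelial markers, Cdh5, Cldn5 and Kdr were also at their highest in scratched WT, while Pecam1 and Tek were not. Cdh5 had 20 counts in scratched WT and at most 1 in any other library, Cldn5 had 11 and at most 1, and Kdr had 74 and between 12 and 21. Pecam1 had 8 counts there and between 4 and 15 elsewhere, and Tek, at 2630 counts, was at its lowest there. The 5 endothelial markers summed to 90.2 CPM in scratched WT, mostly Tek, and to between 102 and 187 CPM in the other libraries. Of the 4 muscle markers, Acta1 had 39 counts in scratched WT and at most 6 in the others. The rest were not at their highest there. Des had 4 counts in scratched WT and 6 in Lingo3 KO, Myh11 had 7 and 16, and Myog had 0 in every library. In all, 99 genes, 70 of them pseudogenes, reached 10 counts or more in scratched WT and stood there 4-fold or more above each other library, and Lama4 was the 1 member among them. By the same rule 71 genes were set apart in Lingo3 KO, and at most 1 in each of the other libraries. The part of RNA from other cells in the Lama4 value was not tested. The ratios of the KO libraries to unscratched WT were between 2.25 and 3.24 for Lamb3, 1.87 and 2.66 for Itga6, and 0.335 and 0.743 for Itgb8. In these comparisons Itga6 passed in Lingo2 KO and Lingo3 KO only, and Itgb8 did not pass in TROY KO. The part of RNA from other cells in these ratios was not tested.

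Itga2, the alpha subunit of an epithelial collagen receptor, had 10 counts in the library labelled Lingo1 KO, 19 in Lingo2 KO, 18 in Lingo3 KO, 17 in TROY KO and 25 in scratched WT, against 4 in unscratched WT. The 5 scratched libraries were all above the unscratched one, a split that was not counted over all genes. The ratio to unscratched WT was 5.89 (2.03 to 23.3) for scratched WT, 4.82 (1.60 to 19.5) for Lingo2 KO and 4.23 (1.39 to 17.2) for Lingo3 KO. It was 4.05 (1.32 to 16.5) for TROY KO and 2.59 (0.746 to 11.3) for the library labelled Lingo1 KO. These rest on the 4 counts of 1 library, and Itga2 was below the filter on low counts. Itga1, another collagen-binding alpha subunit and its neighbour on chromosome 13, was tested and had ratios to scratched WT between 0.792 and 1.18. Itga11, also collagen-binding and below the filter, had 17 counts in Lingo3 KO and between 4 and 11 in the other KO libraries. It had 2 counts in scratched and 6 in unscratched WT. The Itga11 ratio of Lingo3 KO to scratched WT was 8.48 (2.01 to 75.7) and rests on those 2 counts.

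Genes around these receptors were read from lists. The share of all tested genes that passed, to set beside every list count below, was 3.62% for the library labelled Lingo1 KO. It was 3.5% for Lingo2 KO, 7.19% for Lingo3 KO and 2.24% for TROY KO. The lists are short, so counts of a few genes are not read as a result about a list. Of 23 tested genes of the cytoplasmic adhesion plaque, 1 was higher and 1 lower in the library labelled Lingo1 KO and in Lingo2 KO, 2 higher and 1 lower in Lingo3 KO, and 1 lower in TROY KO. The lower gene in all 4 was Fermt3, the kindlin of blood cells, at between 1.21 and 1.49 CPM in the KO libraries, against 4.83 CPM in scratched and 4.12 CPM in unscratched WT. Tns4, a tensin of epithelial cells that binds integrin tails, was 2.87-fold higher (2.28 to 3.64) in the library labelled Lingo1 KO, 2.21-fold (1.74 to 2.83) in Lingo2 KO and 3.87-fold (3.11 to 4.84) in Lingo3 KO. Tln2, a talin, was 2.53-fold higher (2.29 to 2.81) in Lingo3 KO. The plaque list's median log2 ratio lay between 0.11 and 0.25 in the 4 comparisons, beside medians over all tested genes between 0.01 and 0.02.

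Of 4 tested hemidesmosome partners, Krt14, a basal keratin, was higher in every KO library, between 2.93-fold in TROY KO and 4.68-fold in Lingo3 KO. The other 3 did not pass in any. Below the filter on low counts, Krt5 had 0 counts in all 6 libraries and Col17a1 had at most 4. Of 17 tested basement membrane genes other than laminins, 1 was higher in the library labelled Lingo1 KO, 1 was higher and 1 lower in Lingo2 KO, 2 were higher and 3 lower in Lingo3 KO, and none passed in TROY KO. Col18a1, a basement membrane collagen, was 2.90-fold higher (2.67 to 3.16) in the library labelled Lingo1 KO, 2.34-fold (2.14 to 2.55) in Lingo2 KO and 3.82-fold (3.52 to 4.14) in Lingo3 KO. Nephronectin, Npnt, a ligand of alpha8-beta1, was 2.26-fold lower (2.10 to 2.43) in Lingo2 KO and 3.65-fold lower (3.35 to 3.98) in Lingo3 KO. Its receptor subunit Itga8 had at most 7 counts. In Lingo3 KO Col4a6 was 7.86-fold lower, Fras1 2.12-fold lower and Frem2 2.99-fold higher.

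Of 13 tested integrin ligands other than laminins, 1 was higher in the library labelled Lingo1 KO, 1 higher in Lingo2 KO, 2 higher and 1 lower in Lingo3 KO, and 1 higher and 1 lower in TROY KO. Spp1 was the gene higher in all 4, and Emilin1, a ligand of alpha4 and alpha9 integrins, was 6.96-fold higher (5.13 to 9.63) in Lingo3 KO. None of the 7 tested laminin receptors other than integrins, Dag1 and Bcam among them, passed in any comparison, nor did any of the 10 tested integrin-associated membrane proteins. Of 6 tested genes of laminin processing, Mmp2 was 2.32-fold lower (1.75 to 3.09) in TROY KO and no other passed. In the scratched against the unscratched WT library, no gene of these 7 lists passed. Of the tested members, Itgb4, Itgav and Lama3 are overlapped by genes on the opposite strand, with at most 13, 5 and 1 counts in any library. Gm49395, annotated on the same strand, overlaps 685 exon bases of Itga1 and has no counts of its own here. Its part in the Itga1 counts was not tested.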

How the data were processed

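Libraries of MLE12 messenger RNA, 6 in all with 1 per group, were made with an Illumina TruSeq mRNA kit per the labels. The authors deposited raw read counts per Ensembl gene, ending in HTSeq summary lines. Per the submitters' processing notes, Trimmomatic 0.39, STAR, HTSeq, edgeR and build GRCm38 were used. Nothing more on order, settings or strand was given in the sources used here. The other table the authors deposited held values taken here as RPKM: in 96.8% of 8208 genes checked, count over value followed the longest GENCODE M21 transcript within 0.02 log2 units. It also held the authors' log2 ratios, which differed from those computed here by at most 0.0236 over the 19 tested members described.

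Counts were scaled with TMM factors (edgeR 4.0.16, R 4.3.3), the HTSeq lines left out. The TMM factors were between 0.983 and 0.991 in the KO libraries, against 1.04 in scratched and 1.02 in unscratched WT. The share of reads assigned to no feature, among uniquely aligned reads, was between 4.98% and 6.41% in the KO libraries. It was 8.02% in scratched and 7.80% in unscratched WT. The part of this library difference in the KO against WT ratios was not tested. The count floor was 3 counts per library, at between 0.0984 and 0.108 CPM. Intervals and floors cover counting error only, since PCR copies were not marked by molecular identifiers. Symbols were matched for 45143 of the 46078 identifiers. The size rule was checked on simulated counts.

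Of the 37 members, 1 is not reported here and is left out of the counts and figures. Members, lists and tests were chosen with earlier results of these data known. Every other tested member is named, and of each list up to 4 genes past the rule per comparison. Alternatives were total-count and RLE scaling, no filter, a mean of at least 5 CPM, 2 other fold thresholds, unscratched WT as control, and the authors' log2 ratios. RefSeq promoter windows (GRCm38.p6) supplied the sequences.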

Additional observations from a re-analysis of the deposited data

How the results depend on the processing

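No paired analysis was possible because each group had 1 library, and for the same reason no replicate could be left out. Of 40 counts of members past the rule under another setting, 29 stayed within 1.5 times the count reported. Without the filter on low counts, 2 members (Lama4 and Itga2) passed in scratched against unscratched WT, where none had, and 5 in Lingo2 KO. With 1.5-fold and a bound of 1.2, 8 members passed in the library labelled Lingo1 KO, 6 in Lingo2 KO, 12 in Lingo3 KO and 6 in TROY KO, where 10.3%, 10%, 17.9% and 7.63% of all tested genes did. With 3-fold and a bound of 2, 1 passed in the library labelled Lingo1 KO (Lamb3), 0 in Lingo2 KO, 3 in Lingo3 KO (Lamb3, Itgb8 and Itga9) and 0 in TROY KO, where 1.18%, 1.04%, 3.01% and 0.629% of all tested genes did, and 1 (Itga9) between KO libraries. With unscratched WT as control, 1 (Lamb3) passed in TROY KO. Over all genes, the counts that passed were 10 for the scratch and 437, 423, 868 and 270 for the libraries labelled Lingo1, Lingo2, Lingo3 and TROY KO. Without the filter they were 160, 783, 755, 1487 and 562, and with a mean of 5 CPM or more 2, 207, 185, 461 and 118. RLE scaling changed no call of a member. No called member changed direction under total counts, RLE, the authors' ratios or unscratched WT as control. Among ratios near 1, total counts turned Itga1, Itga5, Itga9 and Itgb1 in the library labelled Lingo1 KO, Itgb4 and Itga5 in Lingo3 KO, Lamb2 in TROY KO and Itga2b in scratched WT to the other side of 1. Unscratched WT as control did so for Lamb2 in the library labelled Lingo1 KO and in TROY KO, Lama5, Itga5 and Itga9 in Lingo2 KO, Itgb4 in Lingo3 KO and Itga5 in TROY KO. Depth limits Itgb6, Itga2 and the 17 members under 1 CPM, and the difference between cultures of 1 line was not measured.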
